A study of Homo sapiens with 3 samples.

Results

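Cadherins and the regulators that set epithelial against mesenchymal identity were examined in KYSE180 cells, an established line of human oesophageal squamous cell carcinoma, after the long non-coding RNA HOTAIR was raised or targeted. The genes were CDH1, CDH2, CDH3, EPCAM, VIM, SNAI1, SNAI2, ZEB1, ESRP1 and ESRP2, taken by exact platform gene symbol, and 10 of 10 were found among the 18132 genes on the arrays, on 23 probe sets. There were 3 arrays with 1 array per group, so the spread between cultures is unknown and no test was made. The groups were KYSE180 control cells, KYSE180 cells transfected with the LZRS_HOTAIR vector by means of Polyfect, and KYSE180 cells given a mixture of Stealth siRNAs to HOTAIR (100 pmol) with Lipofectamine2000, RNA being taken 48 h after transfection. All 3 share the line and its medium with serum and antibiotics. The label of the control says no more than control, and does not state whether these cells received any reagent, an empty vector or the negative control siRNA named in the series text. The arms therefore differ in reagent and kind of nucleic acid as well as in HOTAIR, and these cannot be told apart. The source name of the siRNA sample speaks of a HOTAIR cell line where its other labels name KYSE180, and KYSE180 was taken here. HOTAIR itself was not analysed here, so neither arm was checked by its target.

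Epithelial cells hold together through adherens junctions, in which the extracellular part of a classical cadherin binds a cadherin of the neighbouring cell and its tail binds catenins that link it to actin. In the epithelial-mesenchymal transition, zinc finger and homeodomain repressors of the SNAI and ZEB families bind E-box sequences in epithelial genes such as CDH1, while CDH2 and the intermediate filament gene VIM increase and the splicing regulators ESRP1 and ESRP2 are lost. In squamous epithelium CDH1 and CDH3 are both made, CDH3 mainly in the basal layer. HOTAIR has been described in other cells as a partner of SNAI1 and of the chromatin complex PRC2 in the repression of CDH1.

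Signals below are log2 values of a probe set, a group of short oligonucleotides read as a unit, and differences are on the same log2 scale, on which 1 is 2-fold. A gene was called different at 2-fold and was kept for counting where the mean of its brightest probe set reached the median of all probe set means (5.28). This filter kept 7 of the 10 genes and 11 of the 23 probe sets, and left out VIM, SNAI1 and ZEB1. The control array stood apart from the other two. Of 10917 genes kept, 17.3% differed 2-fold between vector and control and 16.7% between siRNA and control, against 3.58% between vector and siRNA. The median gene lay at -0.18 in vector minus control, -0.17 in siRNA minus control and 0.01 in vector minus siRNA, and cyclic loess moved the first pair to -0.04 and -0.01. Differences from control smaller than these shifts have no fixed direction. Probe sets of the same gene were compared over 5982 genes with more than 1 kept. The SD between them was 0.36 in vector minus control, 0.39 in siRNA minus control and 0.21 in vector minus siRNA. This was the only spread that could be measured, and it does not hold the spread between cultures. Arrays read whole cultures, so fewer cells with a transcript and less of it per cell cannot be told apart.

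The squamous markers KRT5, KRT14, KRT13 and SFN were all bright, with means from 11.64 to 12.87. KRT14 read 13.38 with control, 12.22 with vector and 13.01 with siRNA, and KRT5 12.64, 11.72 and 12.47, so that both basal keratin genes were lowest in vector cells. KRT13 (12.98, 12.71 and 12.49) and SFN (12.03, 11.59 and 11.31) were lowest in siRNA cells. The summed signal of these 4 was 14.84, 14.13 and 14.44 as log2. KRT6A and TP63 were not analysed here. Of 7 fibroblast markers 0 were kept, of 4 endothelial markers 0, and of 4 leukocyte markers measured 1, the lysosomal gene CD68, which read 7.49 with control, 6.60 with vector and 6.04 with siRNA. Below the lower quartile of every array lay 3 of the fibroblast, 2 of the leukocyte and 0 of the endothelial markers. The summed signal of the fibroblast markers, as log2, was 6.95 with control, 6.71 with vector and 6.75 with siRNA.

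The N-cadherin gene CDH2, whose product replaces E-cadherin in mesenchymal and neural cells, was the only one of the 7 genes kept that differed 2-fold in any comparison. Its brighter probe set read 7.16 with control, 6.40 with vector and 7.80 with siRNA. Its dimmer probe set, whose mean of 5.23 fell just short of the filter, read 5.21, 4.40 and 6.09 in the same order. On both probe sets the vector array was lowest, the control in the middle and the siRNA array highest. Vector minus siRNA was -1.40 on the brighter probe set, 2.63-fold lower in vector cells, and -1.69 on the dimmer one, 3.22-fold lower. Against control, CDH2 was lower in vector cells by 0.76 and higher in siRNA cells by 0.63 on the brighter probe set, or by 0.81 and 0.88 on the dimmer one, none of them 2-fold. After differences were centred on the median gene the brighter probe set stood at -0.58, just short of 1.5-fold, and 0.80. The range over the 9 settings that kept CDH2 was -1.54 to -1.40 for vector minus siRNA.

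**Figure D1:**
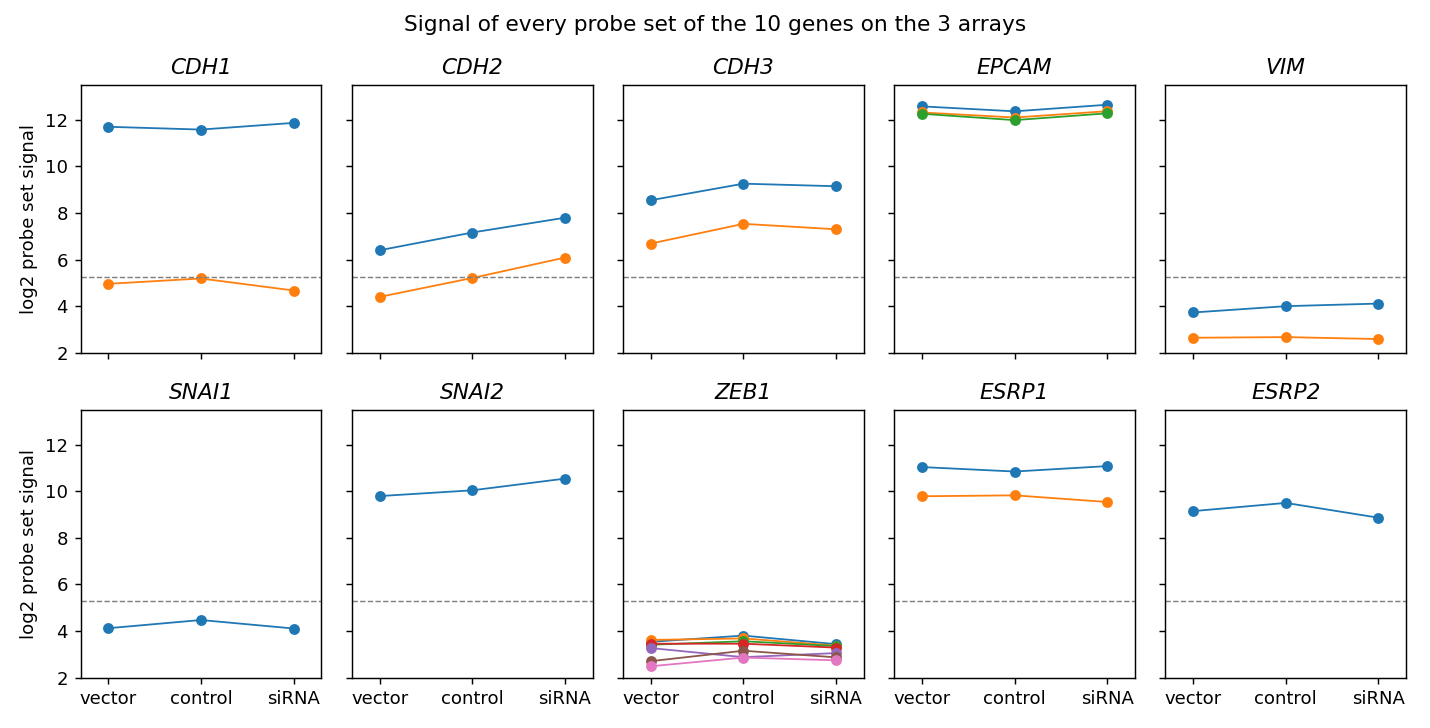
Log2 signal of every probe set of the 10 genes (vertical axis) on the vector, control and siRNA arrays (horizontal axis), with 1 line and colour per probe set joining the 3 arrays and a dashed line at the filter of 5.28. CDH2 runs upward from vector through control to siRNA on both probe sets, EPCAM stays between 11.99 and 12.65, and VIM, SNAI1 and ZEB1 lie under the dashed line on every array.

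The promoter of CDH2, the gene with the largest difference, is shown with that of ZEB1, whose product and those of SNAI1 and SNAI2 bind E-boxes. Each run holds the 250 bases before the most upstream start site in RefSeq (GRCh38.p14), written 5′ to 3′ along the gene. Capitals mark any E-box of the form CACCTG or CAGGTG, and other forms were not marked. The CDH2 run is chr18:28177131-28177380 on the minus strand and the ZEB1 run is chr10:31318167-31318416 on the plus strand.
CDH2: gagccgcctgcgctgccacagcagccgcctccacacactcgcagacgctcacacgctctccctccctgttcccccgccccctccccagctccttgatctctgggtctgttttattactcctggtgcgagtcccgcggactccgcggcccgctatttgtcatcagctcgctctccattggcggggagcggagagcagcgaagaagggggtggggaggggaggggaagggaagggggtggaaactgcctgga
ZEB1: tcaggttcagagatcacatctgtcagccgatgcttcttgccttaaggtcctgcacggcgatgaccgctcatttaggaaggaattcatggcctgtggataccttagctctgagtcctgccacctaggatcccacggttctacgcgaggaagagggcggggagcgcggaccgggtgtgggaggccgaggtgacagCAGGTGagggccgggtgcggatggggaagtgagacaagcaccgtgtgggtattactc
The E-box searched was CACCTG, which reads CAGGTG on the other strand, so both strands were covered. The CDH2 run holds 0 of these and the ZEB1 run 1, at 57 bases before the start site. RefSeq windows were matched for 3 of the 10 genes, with 2 windows for CDH2, 1 for VIM and 7 for ZEB1. Of these 10 windows 2 held the E-box searched, both of ZEB1. That E-box was held by 17.5% of all 35116 RefSeq windows of this length. No match says only that these letters are not in the window.

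Among 10916 other genes kept, the 3 whose centred profile over the 3 arrays lay nearest to that of CDH2 by Euclidean distance were the claudin gene CLDN20, the transporter gene SLC35F3 and RIPPLY3. Their distances were 0.043, 0.052 and 0.053 on the log2 scale, and 33 genes lay within 0.25. With 3 arrays, such likeness is a description only. Vector minus siRNA was -1.45 for CLDN20, -1.41 for SLC35F3 and -1.32 for RIPPLY3.

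The E-cadherin gene CDH1, the main adhesion molecule of the epithelial adherens junction, had a bright signal that differed little between arrays. Its brighter probe set read 11.58 with control, 11.70 with vector and 11.87 with siRNA, so that the groups lay within 0.29 of each other. The dimmer one read 5.19, 4.96 and 4.67, below the median of each array. The 2 probe sets thus ran in opposite orders. Vector minus control was 0.12 on the brighter and -0.23 on the dimmer probe set, and siRNA minus control 0.29 and -0.52. With the mean over both, the differences were -0.055 and -0.11. No direction is given for CDH1 for this reason, and none of its differences reached 1.5-fold (0.58).

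The P-cadherin gene CDH3, a basal layer cadherin of squamous epithelium, was lowest in vector cells on both of its probe sets. The brighter read 9.26 with control, 8.55 with vector and 9.15 with siRNA, and the dimmer 7.54, 6.69 and 7.30. Control and siRNA cells lay close together, and vector cells lay below both. Vector minus control was -0.71 (1.64-fold lower) and -0.85 (1.80-fold lower), and vector minus siRNA -0.60 and -0.61. These differences passed 1.5-fold and not 2-fold, except that the dimmer probe set passed 2-fold against control after repeated quantile normalization. Centred on the median gene, vector minus control of the brighter probe set was -0.53 and missed 1.5-fold. Its siRNA minus control value of -0.11 turned to 0.059 when centred, so it has no direction. The basal keratin genes KRT14 and KRT5 were also lowest in vector cells, with vector minus control of -1.16 (-0.98 when centred) and -0.92 and vector minus siRNA of -0.79 and -0.75. Their part in the CDH3 values was not tested. CDH3 and CDH1 are neighbours on chromosome 16 with 0 protein-coding genes between them, and ESRP2 lies beyond CDH3 with 6 between. Vector minus control of these 3 genes was -0.71, 0.12 and -0.35.

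Of the 20 other cadherins listed, 18 were measured and 3 kept, CDH16, CDH22 and CDH24. None of these 3 differed 2-fold in any comparison (17.3%, 16.7% and 3.58% of all genes kept did). CDH16, the kidney cadherin, differed from control by -0.51 in vector and -0.34 in siRNA cells, and CDH24, a catenin-binding cadherin, by -0.46 and -0.30. The other 15 measured, among them the endothelial cadherin gene CDH5 with 3.91 on each array, had means below the filter.

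EPCAM, an epithelial adhesion and signalling protein common in carcinoma, was bright on 3 probe sets that ran alike. The brightest read 12.37 with control, 12.58 with vector and 12.65 with siRNA, the next 12.10, 12.32 and 12.37, and the third 11.99, 12.26 and 12.28. Both arms lay slightly above control on each. The differences were 0.21 to 0.27 for vector minus control and 0.27 to 0.29 for siRNA minus control, and after centring the brightest probe set stood at 0.40 and 0.45. Vector minus siRNA lay between -0.070 and -0.021. Before centring, the differences from control are below the SD between probe sets of a gene, and after centring they are above it.

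The splicing regulator ESRP1, which with ESRP2 keeps epithelial exons in genes such as FGFR2 and CD44, had 2 bright probe sets that did not move together. The brighter read 10.85 with control, 11.04 with vector and 11.08 with siRNA, and the dimmer 9.83, 9.79 and 9.54. Differences from control ranged from -0.29 to 0.23, and the direction for ESRP1 depended on the probe set. ESRP2 had 1 probe set, which read 9.50 with control, 9.15 with vector and 8.87 with siRNA. Control was highest and siRNA cells lowest, with differences from control of -0.35 and -0.63 (1.55-fold lower in siRNA cells). Centred on the median gene these were -0.17 and -0.47, so that the siRNA value no longer passed 1.5-fold.

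SNAI2, the zinc finger repressor also called Slug, which is made in basal squamous cells, had 1 bright probe set, which read 10.04 with control, 9.80 with vector and 10.54 with siRNA. The order was that of CDH2, vector lowest and siRNA highest, an order that 5.67% of the genes kept shared at any size. Vector minus siRNA was -0.75, or 1.68-fold lower in vector cells, and the differences from control were -0.25 and 0.50. It ranged from -0.80 to -0.75 over the 10 settings.

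SNAI1, VIM and ZEB1 were dim on every array. SNAI1, the repressor also called Snail, read 4.47 with control, 4.12 with vector and 4.11 with siRNA on its single probe set, below the median of each array. VIM, the intermediate filament of mesenchymal cells, read 4.002, 3.73 and 4.11 on one probe set and 2.67, 2.65 and 2.59 on the other, which lay below the lower quartile of each array. ZEB1 had 7 probe sets, all with names that end in _s_at or _x_at, which can share probes with other transcripts or cross-hybridise. Their signals ranged from 2.49 to 3.81, and 5 of 7 lay below the lower quartile on every array. No fold is given for the probe sets below a lower quartile, and a decrease may not be detectable from such signals. No probe set of these 3 genes reached the filter on any array. Low signal on such an array does not show that a transcript is absent.

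**Figure D2:**
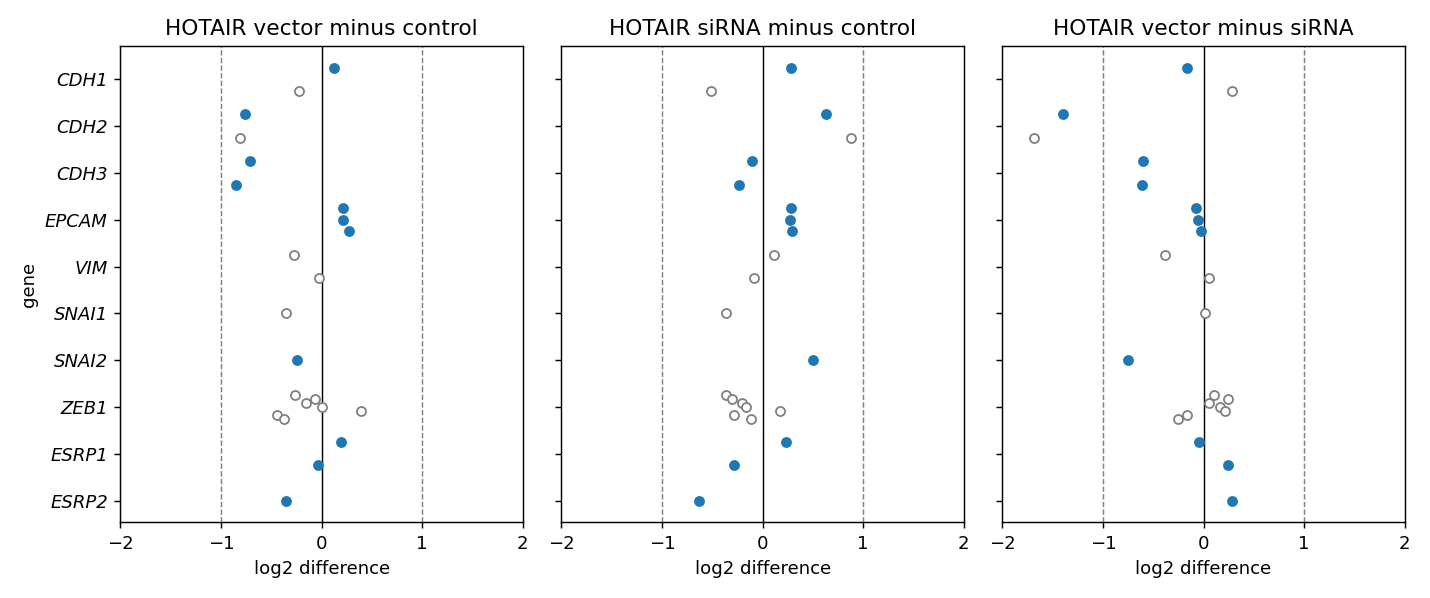
Log2 difference of each of the 23 probe sets (horizontal axis) by gene (vertical axis) in the 3 comparisons, with filled points for probe sets that reached the filter, open points for those that did not, and dashed lines at 2-fold. The CDH2 points lie past the left dashed line in vector minus siRNA, at -1.40 and -1.69, and no other point passes a dashed line in any panel.

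Counted over the 7 genes kept, 0 differed 2-fold in vector minus control (17.3% of all genes kept did), 0 in siRNA minus control (16.7%) and 1 in vector minus siRNA, CDH2, which was lower in vector cells (1.85% of all genes kept were 2-fold lower there). At 1.5-fold, CDH2 and CDH3 were lower in vector than in control cells (19.4% of all genes kept), and 0 were higher (22.9%). In siRNA minus control CDH2 was 1.5-fold higher (22.8%) and ESRP2 lower (18%). In vector minus siRNA 3 of 7 were 1.5-fold lower, CDH2, SNAI2 and CDH3, against 4.95% of all genes kept, and 0 were higher (4.74%). The genes of the set were chosen with earlier results of these data known, so these counts are a description and not a test. The median over the 7 genes was -0.25, 0.28 and -0.17 in the 3 comparisons in this order, beside -0.18, -0.17 and 0.01 over all genes kept. With the mean over probe sets it was -0.25, -0.03 and -0.05, beside -0.19, -0.19 and 0.03. The median of the 7 genes in siRNA minus control therefore has no fixed sign. The comparisons with control share the control array, so their values are given side by side and not related to each other.

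**Figure D3:**
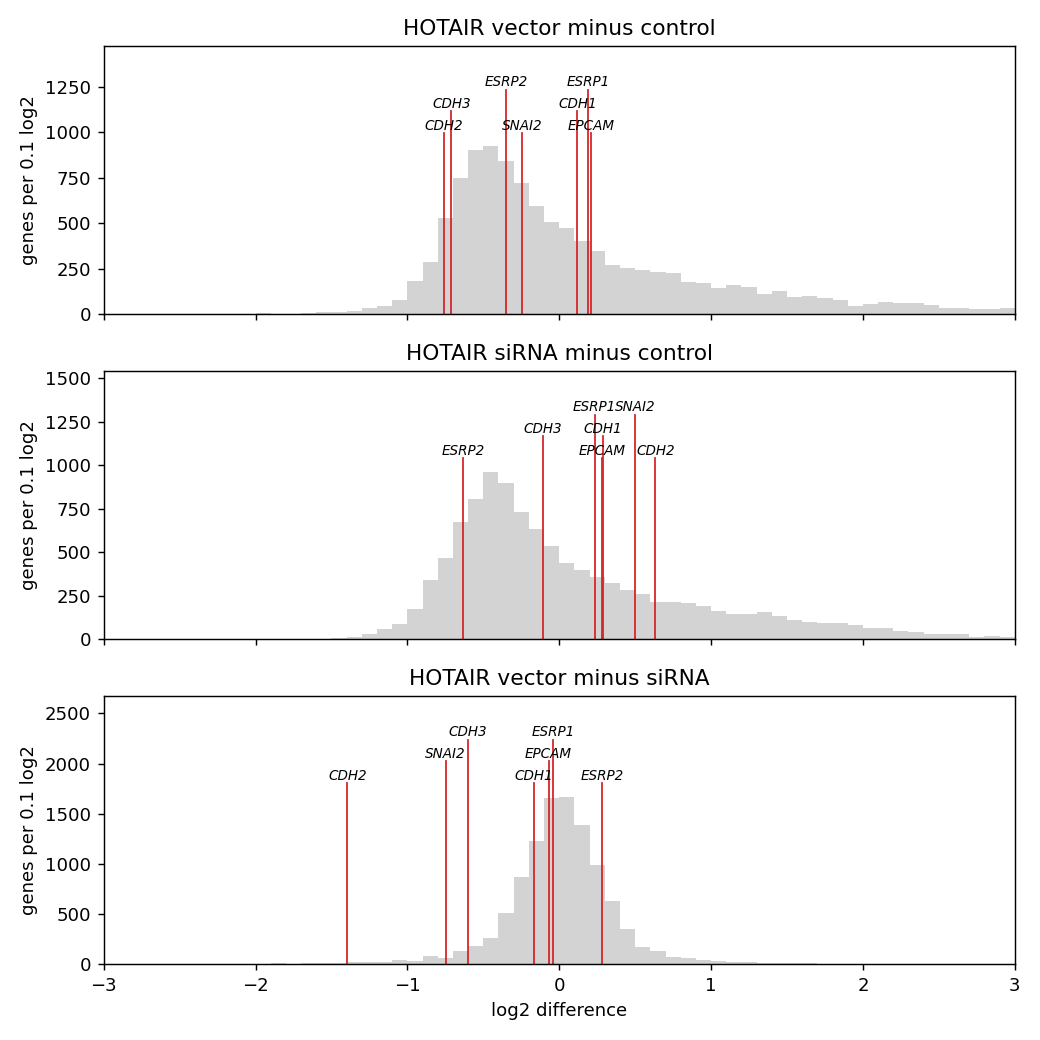
Histograms of the log2 difference (horizontal axis, bins of 0.1) of the 10917 genes kept, counted on the vertical axis, for the 3 comparisons, with red lines at the 7 genes of the set that were kept. The axis shows differences from -3 to 3. CDH2 (-1.40), SNAI2 (-0.75) and CDH3 (-0.60) lie in the left tail of the vector minus siRNA panel, and in the other panels the 7 genes lie within the bulk.

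Of 12 catenins and adherens junction genes kept, 1 differed 2-fold, the alpha-catenin relative CTNNAL1, higher by 1.14 in vector cells and 1.78 in siRNA cells (8.87 with control, 10.02 and 10.65), while 0 differed 2-fold between the arms. Over all genes kept 15.2% and 14.9% were 2-fold higher than control and 3.58% differed between the arms, so 1 and 0 of 12 lie near these shares. With the mean over its probe sets CTNNAL1 stood at 0.997 in vector minus control. Named for their role, the catenins that bind cadherin tails or actin were at 0.01 and 0.27 against control for CTNNB1, -0.07 and -0.12 for CTNNA1, and -0.36 and -0.55 for the plakoglobin gene JUP. The list median was -0.07 in vector minus control, -0.05 in siRNA minus control and -0.22 in vector minus siRNA. CTNND1, the p120 catenin gene, was not analysed here.

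Of 9 genes kept that code for partners of EPCAM and CDH1 or proteases that cut them, 2 were 2-fold higher in vector minus control (15.2% of all genes kept). These were the surface glycoprotein gene CD24 (8.41 in control, 10.55 in vector, 9.38 in siRNA cells) and CBLL1, which codes for the E-cadherin ubiquitin ligase Hakai (7.38, 8.50 and 8.25). In vector cells CD24 differed by 2.14 from control and by 1.17 from siRNA cells, and siRNA minus control was 0.96, or 1.13 when centred. CD24 rests on 1 probe set, whose name ends in _s_at. CBLL1 differed from control by 1.12 in vector cells, or 0.48 with the mean over its probe sets. In siRNA cells it differed by 0.87, or 0.23 with that mean, and passed 2-fold when differences were centred. The list median was 0.38 in vector minus control, 0.12 in siRNA minus control and 0.25 in vector minus siRNA.

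Among 6 kept of the other transcription factors that drive the mesenchymal state, the E-protein genes TCF12 and TCF4 were 2-fold higher than control in both arms (15.2% and 14.9% of all genes kept were), so that the count of 2 rests on few genes. TCF12 read 7.40 with control, 8.88 with vector and 8.99 with siRNA, and TCF4 8.31, 9.36 and 9.72. With the mean over 11 probe sets each, the differences were 0.69 and 0.62 for TCF12 and 0.91 and 1.17 for TCF4, and TCF4 in vector minus control was 0.87 after repeated quantile normalization. The others kept stood lower. Against control, in vector and siRNA cells, TCF3 stood at -0.56 and -0.45 and TWIST2 at -0.46 and -0.39. TWIST1 was at -0.18 and 0.26, and FOXQ1 at -0.15 and 0.02. In vector minus control 2 of the 6 lay above 0, with a list median of -0.16. In siRNA minus control 4 did, with a median of 0.14. Between the arms 0 of the 6 differed 2-fold (3.58% of all genes kept), and the list median there was -0.14. ZEB2 and SNAI3 were measured and lay below the filter.

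Transcription factors of the epithelial state differed most between the arms among the lists examined. Of 10 kept, 6 were 2-fold higher in vector than in siRNA cells (1.73% of all genes kept were) and 0 lower, with a median of 1.21. The list was chosen with earlier results of these data known, so this count is a description and not a test. EHF, an ETS factor of epithelia, read 8.36 with control, 11.19 with vector and 9.79 with siRNA. Both arms lay above control, and vector cells were highest. ELF3, another epithelial ETS factor, read 8.34, 9.00 and 7.55, GRHL3, a grainyhead factor of the epidermal barrier, 7.55, 8.23 and 6.94, and FOXA1, a pioneer factor of glandular epithelium, 7.04, 8.23 and 6.79. In these 3 the control lay between the arms. GRHL1 read 8.21, 9.95 and 8.63, and KLF4, a factor of squamous differentiation, 8.37, 9.36 and 8.22. In KLF4 the control also lay between the arms, with siRNA minus control at only -0.15. Vector minus siRNA was 1.40 for EHF, 1.46 for ELF3, 1.44 for FOXA1, 1.29 for GRHL3, 1.32 for GRHL1 and 1.14 for KLF4. With the mean over probe sets FOXA1 (0.93) and GRHL1 (0.73) missed 2-fold. Without probe sets ending in _s_at or _x_at, ELF3 had no kept value. Against control 3 of the 10 were 2-fold higher in vector cells (15.2% of all genes kept), EHF (2.82), GRHL1 (1.74) and FOXA1 (1.19), of which GRHL1 and FOXA1 stood at 0.79 and 0.55 when probe sets were averaged. KLF4 joined them (1.17) when differences were centred, and FOXA1 fell short (0.99) after repeated quantile normalization. In siRNA minus control 1 was, EHF (1.42, or 0.58 with that average; 14.9% of all genes kept were 2-fold higher). OVOL2, a repressor of ZEB1 named for that role, was lower than control by 0.61 in vector and 0.82 in siRNA cells. Its relative OVOL1 stood at 0.23 in vector and -0.47 in siRNA cells against control, and GRHL2 at 0.19 in both. These 3 genes share no direction. The list median was 0.67 in vector minus control and -0.20 in siRNA minus control.

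Of 9 kept genes whose transcripts are reported to be spliced by ESRP proteins, SLK and RALGPS2 were 2-fold higher than control in both arms, beside 15.2% in vector and 14.9% in siRNA cells over all genes kept. The kinase gene SLK read 6.23 with control, 9.78 with vector and 8.50 with siRNA, and RALGPS2, a Ral exchange factor gene, 5.42, 7.57 and 7.15. Without probe sets ending in _s_at or _x_at RALGPS2 stood at 0.93 and 0.47 against control and missed 2-fold. ENAH (0.88 in vector and 0.91 in siRNA cells against control) passed in both arms when differences were centred. SLK also differed between the arms, by 1.28 (1.73% of all genes kept were 2-fold higher in vector cells). The probe sets as summarised do not measure exon choice. The list median was -0.18, 0.30 and -0.03 in vector minus control, siRNA minus control and vector minus siRNA. Of 7 other splicing regulators of the epithelial state, 1 differed 2-fold as deposited, MBNL1, which was higher than control by 1.54 in vector and 1.42 in siRNA cells. QKI (0.90 in siRNA minus control) passed when differences were centred. This count of 1 of 7 is near the same 15.2% and 14.9%, and the list medians were 0.35, 0.52 and -0.08 in that order.

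The epithelial signature, 20 genes of which all were kept, had medians of -0.25, -0.34 and 0.16 in that same order. In vector minus control 2 were 2-fold higher (15.2% of all genes kept), the trafficking gene MAL2 (2.17) and the calcium-binding protein gene S100A14 (1.12, or 0.97 after repeated quantile normalization), and 1 was lower (2.05%), the epiplakin gene EPPK1 (-1.04, or -0.85 when centred). In siRNA minus control MAL2 was 2-fold higher (1.31, or 0.37 with the mean over its probe sets) and the polarity gene CRB3 lower (-1.03, or -0.86 after centring), beside 14.9% and 1.85% of all genes kept. In vector minus siRNA EPPK1 was 2-fold lower (-1.08; 1.85% of all genes kept were), and 16 of the 20 lay above 0, as did 52% of all genes kept. The mesenchymal signature had 22 genes measured and 12 kept, with medians of -0.55, -0.33 and -0.28. In vector minus control 2 were 2-fold lower (2.05% of all genes kept), the galectin gene LGALS1 (-1.81; 9.24 with control, 7.43 with vector and 8.45 with siRNA) and the tropomyosin gene TPM2 (-1.28, or -0.84 with the mean over its probe sets). LGALS1 was also lower in vector than in siRNA cells, by 1.02 on 1 probe set. FN1, the fibronectin gene often read with CDH2 and VIM, lay below the filter.

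Of 13 kept genes for corepressors of SNAI and ZEB proteins and for enzymes of their turnover, 0 differed 2-fold in any comparison as deposited. Over all genes kept 17.3%, 16.7% and 3.58% did. When differences were centred, HDAC2 (1.10 in vector minus control) and GSK3B (1.15 in siRNA minus control) passed. In siRNA minus control, FBXO11 and, barely, HDAC2 passed as well (0.84 and 0.83 before centring). Centring also raised the genes called from 1886 to 2083 in vector minus control and from 1825 to 2027 in siRNA minus control. The largest differences were those of HDAC2, a histone deacetylase gene (0.92 in vector and 0.83 in siRNA cells against control), and GSK3B, the kinase that marks SNAI1 for degradation (0.71 and 0.98). With the mean over probe sets these were 0.45 and 0.36 for HDAC2 and 0.24 and 0.08 for GSK3B. The list medians were 0.59, 0.63 and -0.10.

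**Figure D4:**
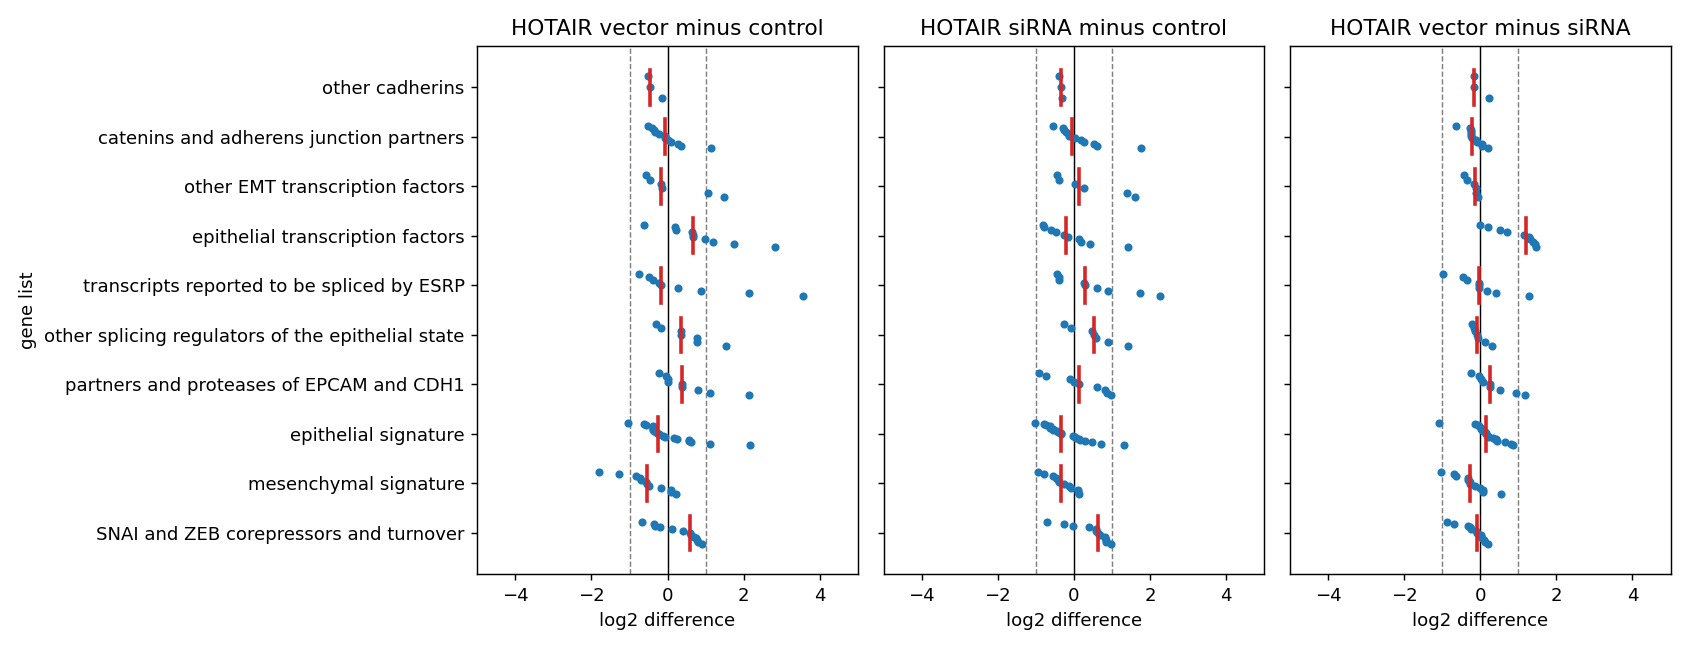
Log2 differences (horizontal axis) of the kept genes of 10 lists (vertical axis) in the 3 comparisons, with 1 point per gene, red bars at list medians and dashed lines at 2-fold. The epithelial transcription factors have 6 of 10 points past 2-fold in vector minus siRNA with the red bar at 1.21, and the bars of the other lists lie between -0.28 and 0.25 in that panel.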

How the data were processed

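Total RNA was labelled with biotin by a 3' IVT kit, per the labels' protocols. The authors deposited RMA signals per probe set, according to the submitters' processing notes, and their range is that of log2 values. Its version and settings are not stated. RMA shrinks differences close to background, so dim genes have understated folds. Of 49293 probe sets the platform annotation gave 44988 a single symbol, 1832 several and 2473 none. Each gene was read on its brightest probe set by mean signal, and every probe set of the 10 genes was also read. Differences were taken between arrays and called at 2-fold, with no test. The 10 genes and the gene lists (152 genes, 142 measured, 101 kept) were chosen with earlier results of these data known. Genes named from a list were those kept and 2-fold apart in any comparison, or else the 2 most different, and the 3 profiles nearest to each of the 10 genes that passed 2-fold. Others are named for their role, to complete a list or because centring took them past 2-fold. In the closing section, genes are named after their values were seen. Alternatives were folds of 1.5 and 3, the mean over probe sets, omission of probe sets ending in _x_at or _s_at, no filter or the 75th percentile, repeated quantile normalization, cyclic loess (span 0.4, 3 cycles) and centring on the median gene. Python 3.11.15, numpy 2.4.6, pandas 2.3.3, R 4.3.3 and limma 3.58.1 were used, with matplotlib 3.10.9.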

Additional observations from a re-analysis of the deposited data

How the results depend on the processing

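No paired analysis was possible because each group has 1 array. At 1.5-fold, 2 genes of the set passed in vector minus control, 2 in siRNA minus control and 3 in vector minus siRNA, on 3, 2 and 4 probe sets. At 3-fold CDH2 no longer passed in vector minus siRNA, which left 0 genes and 0 probe sets. The 75th percentile filter (7.44) left CDH2 out, with 0 genes and 0 probe sets, by its own construction. With no filter the 2 probe sets of CDH2 passed in vector minus siRNA. Repeated quantile normalization gave 1 probe set past 2-fold in vector minus control, of CDH3. Under the other alternatives run, these counts stayed within 1.5 times those reported. Of 186 values of the 7 genes kept under an alternative, 184 moved by less than the SD between probe sets of a gene, and 2 by more. Of 639 values of the other named genes 24 moved by more. Both totals include the fold and filter settings, which cannot move a value, so their part of the result was fixed in advance. No value past 2-fold as reported changed sign under these alternatives. Smaller values did so 6 times among the 7 genes kept (CDH1, CDH3 and ESRP1) and 4 times among the others (TCF12, GSK3B, EPPK1 and KLF4). None of them was above 0.29 in size as reported. Having 3 arrays limits all precision, and signal near background limits those of VIM, SNAI1 and ZEB1.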

Other observations

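Genes whose mean lay below the filter can still be bright on 1 array. Of the 44 listed or main genes below it, 5 reached the filter level on at least 1 array and differed 2-fold in some comparison, and of all 7215 genes below it 189 (2.62%) did. The 5 were chosen after their values were seen. Each passed through a single high array on its brightest probe set, so that this array is high follows from the choice. TGFBI, a secreted matrix protein gene induced by TGF-beta, was highest in vector cells on all 4 of its probe sets, with 4.74 with control, 6.40 with vector and 3.97 with siRNA on the first and 4.20, 6.86 and 3.33 on the next. NT5E, which codes for the mesenchymal surface enzyme CD73, was highest in vector cells on all 3 probe sets, with 3.05, 6.98 and 3.01 on the first and 3.19, 4.25 and 2.99 on the next. On all 3 probe sets of NT5E the control and siRNA arrays lay below their lower quartile. The siRNA array did so for TGFBI on all but the first probe set. The sizes of these differences are therefore uncertain. TGFBI and NT5E are mesenchymal signature genes in a list whose kept members had a median of -0.55 in vector minus control.

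The mesenchymal cadherin gene CDH11 read 4.09 with control, 3.19 with vector and 6.10 with siRNA on 1 of its 6 probe sets, the same order as CDH2. The other 5 did not show the siRNA array highest, the brightest of them reading 3.998, 3.86 and 3.78, so the order rests on a single probe set. NECTIN3, a nectin of adherens junctions, was highest in siRNA cells on both probe sets, with 3.93, 4.55 and 5.41 on the brighter. PLEKHA7, an adherens junction adaptor gene, was highest in vector cells on 1 of 2 probe sets, with 4.56, 5.39 and 4.34.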
